A study of Mus musculus with 16 samples.

Results

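Transcript levels of 10 Polycomb repressive complex genes were examined in mouse pluripotent cell lines that had been sorted by their developmental capacity. The genes were chosen by name as Ezh1, Ezh2, Eed, Suz12, Jarid2, Mtf2, Phf19, Cbx7, Rnf2 and Ring1, and all 10 were found among the 22552 gene names of the expression table. All 10 also passed the filter on low values, a mean of at least 0.5 FPKM over the lines, which left 13185 genes for testing. FPKM divides the reads of a gene by the length of its transcript and the size of the library, so levels can be set side by side between genes.

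The RNA came from 16 cell lines with 1 library each, so a line was the replicate. AN lines were embryonic stem cells made by transferring the nuclei of adipocyte progenitor cells into enucleated oocytes. AI lines were induced pluripotent stem cells made from the same kind of progenitor cell by adding doxycycline. The progenitor cells of both came from mice that had themselves been made from an induced pluripotent stem cell line, 37iPSC, so that AN and AI lines share the reprogramming transgenes and the strain label 129-M2rtTA. The study called a line fully pluripotent (F) or partially reprogrammed (P) by tetraploid complementation, in which the tested cells must form the whole fetus. Among the AI lines, GS32, AI3, AI7 and AI10 were F (4 lines) and GS4, GS9 and AI9 were P (3 lines). Among the AN lines, 4 were F, namely AN1, AN9, AN15 and AN20, and 5 were P, namely AN2, AN3, AN5, AN6 and AN7. The 3 GS lines were older lines, with GS32 at passage 13 and GS4 at passage 17, while the other 14 were at passages 5 to 7. Each line stands for a single derivation, and the lines were grown in serum with leukemia inhibitory factor.

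Polycomb proteins keep developmental genes silent in pluripotent cells. Polycomb repressive complex 2 (PRC2) methylates histone H3 through the enzymes Ezh2 or Ezh1, which need the partner subunits Eed and Suz12 to be active. Jarid2, Mtf2 and Phf19 join the complex and help bring it to CpG-rich promoters. Polycomb repressive complex 1 (PRC1) ubiquitinates histone H2A through the ligases Rnf2 or Ring1, and Cbx7 is the chromobox subunit that reads the PRC2 mark in embryonic stem cells. Embryonic stem cells can grow without PRC2, but their differentiation is then disturbed.

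The depth of the libraries was similar. The lowest FPKM step of each line, taken as the value of 1 read, gave an estimate of 21350000 to 27960000 reads per line. All 11 pluripotency markers of the 12 listed that were in the table were expressed in each line, with Pou5f1 between 615 and 1222 FPKM. All 20 fibroblast markers were also above 0 in each line, and Col1a1, which pluripotent cells make little of, ranged from 27.4 to 231 FPKM. Embryonic fibroblasts served as feeder cells when the AN lines were derived, and whether any were left in these samples is not given in the sources used here. The mean log2(FPKM + 1) of the fibroblast markers ranged from 4.81 to 5.72 in AN F, 5.12 to 5.85 in AN P, 4.97 to 6.08 in AI F and 4.09 to 5.64 in AI P. In such bulk RNA, fewer cells of a type and less RNA per cell cannot be told apart. Of the 15 extraembryonic endoderm markers, 13 were above 0 in each line and 12 had a mean under 10 FPKM. The exceptions to the latter were the matrix genes Sparc (249 to 760 FPKM), Lamb1 (30.6 to 64.8 FPKM) and Col4a1 (13.5 to 67.3 FPKM), while Ttr was listed at 0 in 15 lines and Afp in 7 lines.

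The PRC2 core was abundant in every line, and the order of the genes within the complexes was steep. Eed, the subunit that binds the methylated histone tail, had the highest mean level of the 10 genes, at 136 ± 23.4 FPKM (SD, n = 16 lines). Ezh2, the main methyltransferase, followed at 99.3 ± 14.6 FPKM, and Suz12, the scaffold of the complex, had 52.6 ± 9.24 FPKM. Eed exceeded Ezh2 in 16 of 16 lines and Ezh2 exceeded Jarid2 in 16 of 16 lines, although the ranges over the lines overlapped. The other methyltransferase, Ezh1, had only 5.16 ± 0.769 FPKM, and its range did not overlap with that of Rnf2, the next higher gene. The accessory subunits were far apart from each other, with Jarid2 at 66.7 ± 15.0, Mtf2 at 64.8 ± 18.5 and Phf19 at 1.61 ± 0.381 FPKM. Jarid2 and Mtf2 could not be ordered, since Jarid2 was the higher of the pair in 9 of 16 lines. In PRC1, Cbx7 had 38.1 ± 5.19 FPKM and Rnf2 33.8 ± 5.94 FPKM, with Cbx7 higher in 11 of 16 lines, whereas Ring1 had 3.62 ± 0.453 FPKM. Phf19 was the lowest gene, below Ring1 in 16 of 16 lines with no overlap of their ranges.

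**Figure D1:**
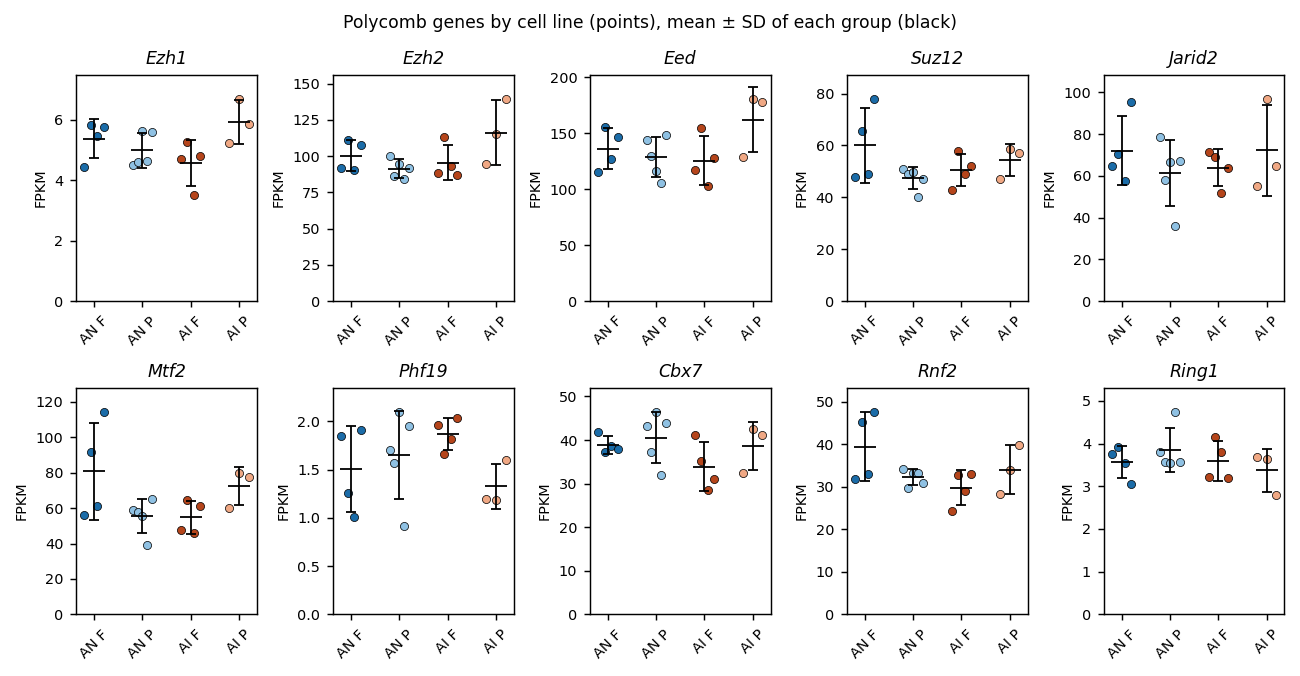
FPKM of each gene (vertical axis, starting at 0) in the 16 lines, with 1 point per line, grouped on the horizontal axis by cell type (AN or AI) and state (F or P); black bars give the mean ± SD of a group. Eed and Ezh2 stand near 100 FPKM and above in all groups, Phf19, Ring1 and Ezh1 stay under 7 FPKM, and the points of F and P lines overlap in all panels but that of Phf19 in the AI lines.

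The depth behind these values differed by gene. At the estimated read numbers, Phf19 rested on a median of 143 reads per line, Ring1 on 214 and Ezh1 on 518, while the other 7 genes rested on 2291 to 12622. The counting error at the median was then 8.37% for Phf19, 6.84% for Ring1, 4.39% for Ezh1 and at most 2.09% for the others. The spread between lines was of another order for some genes. On the log2(FPKM + 1) scale, the SD over the 16 lines was 0.37 for Mtf2, more than that of 88.0% of the tested genes, and 0.33 for Jarid2, more than that of 83.1%. Ring1 varied least, with an SD of 0.14 and 14.1% of tested genes below it, where the median SD of all tested genes was 0.21.

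Each of the paired enzymes had a dominant form in every line. The ratio of Ezh2 to Ezh1 was 19.4 ± 2.83 (SD, n = 16 lines) and never fell under 16.4, the value in AN7. The ratio of Rnf2 to Ring1 was 9.51 ± 2.42, from 7.05 in AN6 to 15.6 in AN20. The ratio of Mtf2 to Phf19, both of which carry the Tudor and PHD finger domains of Polycomb-like proteins, was 42.6 ± 15.6 and ranged from 24.2 in AI3 to 72.6 in AN9. It averaged 55.8 ± 18.04 in AN F and 34.9 ± 5.88 in AN P, but 29.6 ± 6.65 in AI F and 55.3 ± 10.6 in AI P, so that its order between F and P lines was opposite in AN and AI. The AI F lines (24.2 to 38.8) lay below the AI P lines (48.4 to 67.5). The AN groups overlapped, since AN1 of AN F had a ratio of 30.2 and AN6 of AN P had 42.8. These ratios were not tested, and how often ratios of other genes separate the AI groups was not counted. Among single tested genes, 4.88% had AI F and AI P values that did not overlap.

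**Figure D2:**
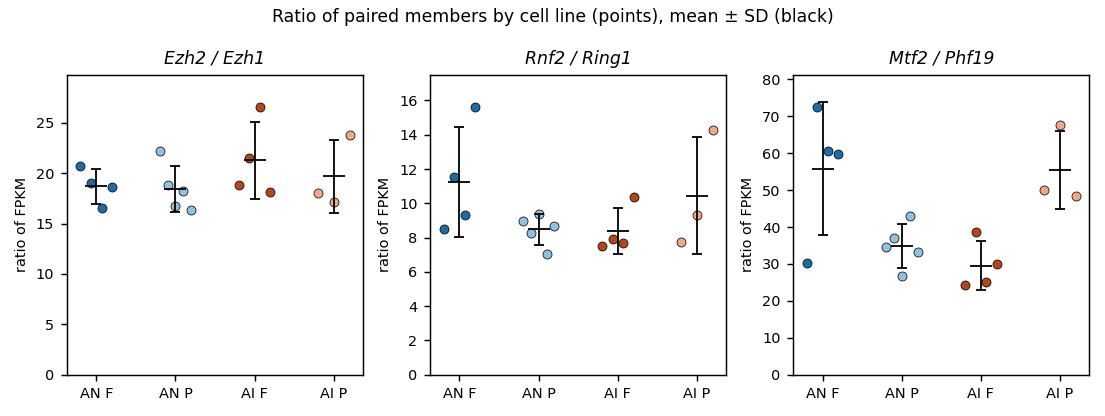
Ratio of the FPKM of paired genes (vertical axis, starting at 0) in each of the 16 lines by group, for Ezh2 to Ezh1, Rnf2 to Ring1 and Mtf2 to Phf19; points are lines and black bars the mean ± SD. The ratio of Ezh2 to Ezh1 lies between 16.4 and 26.6 in all lines, while that of Mtf2 to Phf19 averages 55.8 in AN F and 34.9 in AN P against 29.6 for AI F and 55.3 for AI P.

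The first comparison asked whether fully pluripotent nuclear transfer lines differ from partially reprogrammed ones. Mtf2, Suz12 and Rnf2 had the largest differences, all with higher means in AN F, and none of the 10 genes passed the test. In limma's moderated test with Benjamini-Hochberg adjustment over all tested genes, the adjusted p was under 0.05 for 0 of 10 genes and for 0% of all tested genes, and 0 of 10 had an unadjusted p under 0.05, where 6.01% of all tested genes did. The smallest adjusted p was 0.636.

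Mtf2, the Polycomb-like subunit that binds unmethylated CpG DNA, had 55.9, 91.5, 61.4 and 114 FPKM in AN1, AN9, AN15 and AN20. In AN P it had 59.0 FPKM in AN2, 57.9 in AN3, 55.8 in AN5, 39.4 in AN6 and 65.3 in AN7. The groups were not separated, since AN1 and AN15 lay within the AN P range and only AN9 and AN20 lay above it. The difference of the means was 0.49 on the log2(FPKM + 1) scale (SE 0.22, 95% interval -0.0049 to 0.99, adjusted p = 0.636 in limma's test). An exact permutation test over the 126 splits of the 9 lines gave p = 0.127, two-sided, where the smallest possible value was 0.0159.

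Suz12, which holds the PRC2 core together, showed the same layout. It had 47.9, 65.7, 48.9 and 78.0 FPKM in the AN F lines, in the order above, and 40.3 to 50.9 FPKM in the AN P lines, for a difference of 0.31 (SE 0.15) and an exact permutation p of 0.175. Rnf2, the main E3 ligase of PRC1, had 31.9, 45.2, 33.0 and 47.6 FPKM in the AN F lines and 29.6 to 34.1 FPKM in the AN P lines, for a difference of 0.26 (SE 0.13) and again an exact permutation p of 0.175. In each of the 3 genes it was AN9 and AN20 that exceeded every AN P line. Without AN9 and AN20, a choice made after the data had been seen, the differences were 0.10 for Mtf2, 0.03 for Suz12 and 0.01 for Rnf2.

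The other 7 genes differed less between AN F and AN P. Jarid2 differed by 0.25 (SE 0.22), with its highest AN value of 95.5 FPKM in AN20 and its lowest of 36.1 FPKM in AN6. The catalytic and core genes Ezh2, Ezh1 and Eed differed by 0.13, 0.09 and 0.08, and Cbx7, Phf19 and Ring1 by -0.05, -0.08 and -0.08. Over the 10 genes the median difference was 0.11 and 7 were positive, beside a median of -0.01 and 46.2% positive over all tested genes. The groups overlapped for all 10 genes, where 1.3% of all tested genes had AN F and AN P values that did not overlap.

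The AI lines were compared in the same way. Here the means of 8 of 10 genes were lower in AI F, with the largest differences in Mtf2 and Eed, while Phf19 was higher in AI F. By limma's test, the adjusted p was again under 0.05 for 0 of 10 genes and 0% of all tested genes, and the smallest was 0.521. At an unadjusted p under 0.05 there were 2 of 10 genes, Mtf2 and Phf19, where 7.77% of all tested genes passed.

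Phf19, the lowly expressed relative of Mtf2, had 1.96, 1.66, 1.82 and 2.04 FPKM in AI3, AI7, AI10 and GS32, against 1.19, 1.18 and 1.60 FPKM in AI9, GS4 and GS9. All AI F lines were therefore above all AI P lines, but AI7 and GS9 nearly met. The difference was 0.31 (SE 0.11, 95% interval 0.06 to 0.55, adjusted p = 0.521 in limma's test), and 0.47 with a pseudocount of 0.1, which shrinks low values less. The exact permutation p was 0.0571, two-sided, the smallest that 35 splits of 7 lines can give. Of the 10 genes, Phf19 alone had groups that did not overlap, and 4.88% of all tested genes had such groups.

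Mtf2 had 47.5, 64.4, 45.7 and 61.3 FPKM in AI3, AI7, AI10 and GS32 and 59.9, 79.9 and 77.3 FPKM in AI9, GS4 and GS9. The older lines GS4 and GS9 were above all AI F lines, and AI9, the newly derived AI P line, was among them. The difference was -0.40 (SE 0.17, 95% interval -0.79 to -0.01, adjusted p = 0.521 in limma's test), with an exact permutation p of 0.171. With derivation, new or older, as a term in the fit, the difference of Phf19 was 0.35 and kept an unadjusted p under 0.05, while that of Mtf2 was -0.27 and did not.

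Eed and Ezh2 followed the layout of Mtf2. Eed had 118, 154, 103 and 128 FPKM in the AI F lines and 128, 181 and 178 FPKM in AI9, GS4 and GS9, for a difference of -0.37 (SE 0.18). Ezh2 had 88.6, 113, 93.1 and 86.8 FPKM in the AI F lines and 94.3, 115 and 139.5 FPKM in the AI P lines, for a difference of -0.27 (SE 0.16). Ezh1 differed by -0.32 (SE 0.15), with its lowest level of the series, 3.50 FPKM, in AI10 and its highest, 6.70 FPKM, in GS4. For these 3 genes the exact permutation p was 0.114. Cbx7, Rnf2, Jarid2 and Suz12 differed by -0.19, -0.18, -0.14 and -0.10, and Ring1 by 0.07. With derivation as a term the values of Rnf2, Jarid2, Suz12 and Ring1 were -0.07, -0.04, -0.03 and 0.0028. The median difference of the 10 genes was -0.18, beside -0.04 over all tested genes, of which 43.7% were positive.

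**Figure D3:**
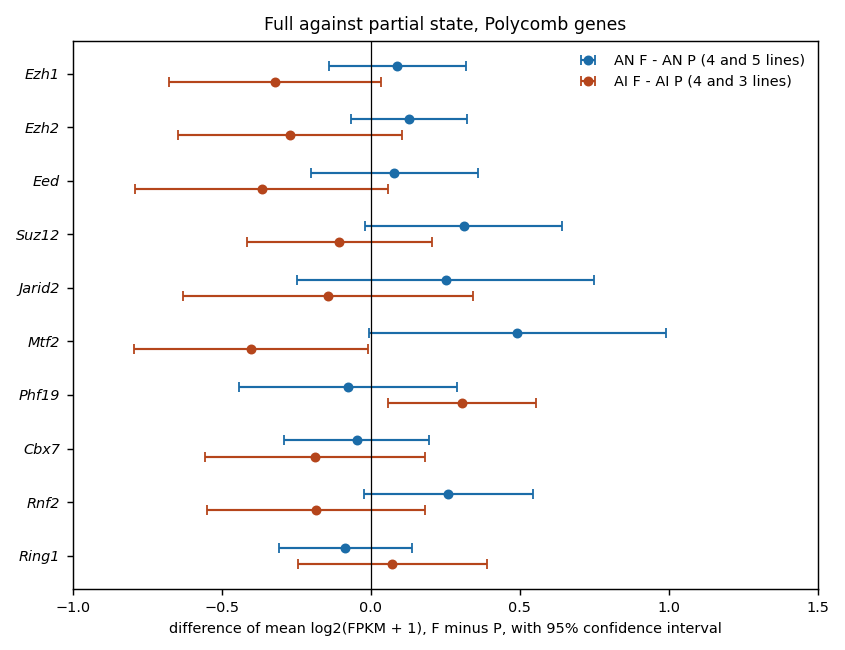
Difference of mean log2(FPKM + 1), F minus P (horizontal axis), for each gene (vertical axis), in AN lines (blue, 4 against 5) and AI lines (red, 4 against 3), with 95% confidence intervals from limma. In AN, 7 of 10 points lie above 0 and every interval spans 0; in AI, 8 of 10 lie below 0 and the intervals of Mtf2 and Phf19 exclude 0 before adjustment.

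Because the signs differed, the difference between the F minus P effects of AI and AN was tested in a fit of all 16 lines. It was negative for 8 of 10 genes and largest for Mtf2, at -0.89 (SE 0.31, 95% interval -1.54 to -0.24). For Ezh1 it was -0.41, for Ezh2 -0.40 and for Rnf2 -0.44, and these 4 genes had an unadjusted p under 0.05, where 16.6% of all tested genes did. By limma's test, 0 of 10 genes and 0% of all tested genes passed the adjusted threshold of 0.05, and the smallest adjusted p among the 10 was 0.290. The median over the 10 genes was -0.40, beside -0.04 over all tested genes. Phf19 and Ring1 had positive values, 0.38 and 0.16. Without the 3 GS lines the values were -0.69 for Mtf2, -0.28 for Ezh1, -0.08 for Ezh2 and -0.26 for Rnf2, and without AN9 and AN20 they were -0.50, -0.31, -0.27 and -0.19. In both cases 0 of 10 genes had an unadjusted p under 0.05. The share of all tested genes in these 2 runs is not given, so whether the fall was particular to the 10 genes cannot be told.

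The lines with the highest levels also stood apart in other measures. AN9, AN20, GS4 and GS9 were among the 3 highest lines for 6, 4, 6 and 4 of the 10 genes, whereas AN6 was among the 3 lowest for 7 and AI10 for 6. AN9, AN20, GS4 and GS9 had the lowest fibroblast marker means, 4.81 in AN9, 4.91 in AN20, 4.47 in GS4 and 4.09 in GS9, where the other 12 lines ranged from 4.97 to 6.08. They also had the highest sums of FPKM over all genes, 789900 to 963434 where those of the other lines were 661973 to 776426. Genes annotated as snoRNA, miRNA, snRNA, rRNA or miscellaneous RNA (small RNA) made up 22.0% of the FPKM sum in AN9 and 22.7% in AN20, where the other lines had 13.0% to 18.9%. Over the 16 lines this share had a Pearson r of 0.75 with Rnf2, 0.74 with Mtf2 and 0.69 with Suz12, and of 0.35, 0.38 and 0.21 without AN9 and AN20. AN6 had the lowest mean of the pluripotency markers, 6.79, where the other lines had 6.98 to 7.73.

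Across the 16 lines, Ezh2 and the fibroblast marker mean had a Pearson r of -0.88 (Spearman rho -0.78), and r was -0.74 without GS4 and GS9, the 2 lines farthest from the median marker mean. The r was -0.74 for Eed, -0.72 for Ezh1, -0.65 for Rnf2, -0.58 for Mtf2 and -0.56 for Suz12. It was weaker for Cbx7 (-0.39) and Jarid2 (-0.38), and positive for Phf19 (0.30) and Ring1 (0.17), the latter turning to -0.27 without GS4 and GS9. The mean of the 11 pluripotency markers gave values of the other sign for each of the 10 genes but Phf19, which had 0.07. Among them, r was 0.85 for Eed, 0.77 for Jarid2, 0.75 for Mtf2, 0.71 for Ezh1, 0.69 for Ezh2 and -0.41 for Ring1. Without AN6 and GS4, the lines farthest from the median of that mean, these were 0.78, 0.47, 0.66, 0.67, 0.63 and -0.18. The pluripotency markers had median differences of 0.08 in AN (8 of 11 positive), -0.42 in AI (2 of 11 positive) and -0.41 in the difference of effects (1 of 11 positive). These had the same signs as the medians of the 10 genes. In F against P over all lines the signs were opposite, -0.16 for the markers and 0.02 for the 10 genes. They were also opposite in AN against AI, at -0.06 and 0.0072. These values describe lines that share 1 FPKM scale, and no p is given for them. With the fibroblast marker mean as a term in the fit, the difference between the AI and AN effects was -0.53 (SE 0.34) for Mtf2, -0.19 for Ezh1, -0.04 for Ezh2 and -0.10 for Rnf2, and 0 of 10 genes had an unadjusted p under 0.05. With that term, the AI F minus AI P difference was -0.18 for Mtf2, -0.06 for Eed, -0.18 for Ezh1 and 0.04 for Ezh2. For Phf19 it was 0.33 (SE 0.14), and again 0 of 10 genes had an unadjusted p under 0.05. In the fits with this term the share of all tested genes is not given. Whether the fall in the count was particular to the 10 genes cannot be told. Quantile normalization, which gives all lines the same distribution of values, was run as another setting. It gave AI F minus AI P differences of -0.20 for Eed, -0.13 for Ezh2, -0.30 for Mtf2 and -0.34 for Ezh1. Without it they were -0.37, -0.27, -0.40 and -0.32. The part of the FPKM sum, the small RNA share and the pluripotency markers in these differences was not tested.

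**Figure D4:**
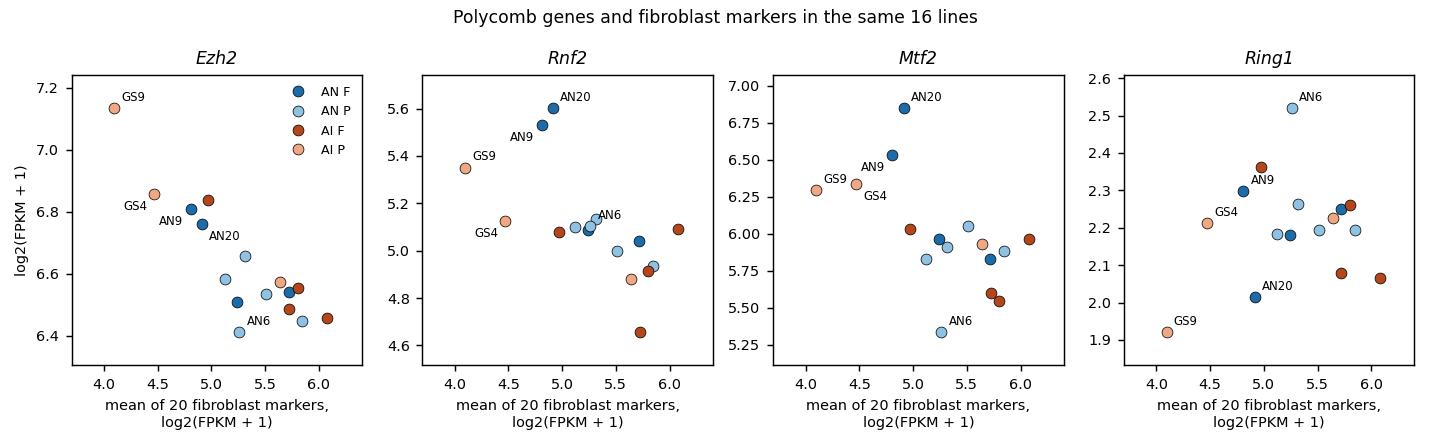
Level of Ezh2, Rnf2, Mtf2 and Ring1 (vertical axes, log2(FPKM + 1), not starting at 0) against the mean log2(FPKM + 1) of 20 fibroblast markers in the same line (horizontal axis), with 1 point per line coloured by group. GS9, GS4, AN9 and AN20 lie at the left with the lowest marker means, 4.09 to 4.91, and at high levels of Ezh2, Rnf2 and Mtf2; Ring1 has its highest level in AN6 and its lowest in GS9.

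AN and AI lines gave small differences in the 10 genes. These, AN minus AI with F and P weighted equally, ran from -0.13 for Ezh2 to 0.16 for Rnf2, and the 95% intervals of the 10 genes stayed between -0.39 and 0.39. No gene was called in limma's test, with 0 of 10 (and 0% of all tested genes) past the adjusted threshold and 0 of 10 at an unadjusted p under 0.05, where 3.52% of all tested genes passed the latter. Without the GS lines, the difference of Rnf2 was 0.30 and had an unadjusted p under 0.05, and that of Cbx7 was 0.23 where it had been 0.13. Without AI9, Ezh2 had -0.20 and an unadjusted p under 0.05. In levels, Cbx7 had 39.8 ± 4.42 FPKM in the 9 AN lines and 35.9 ± 5.62 FPKM in the 7 AI lines, and Rnf2 had 35.5 ± 6.38 and 31.6 ± 4.94 FPKM. Averaged over AN and AI, F minus P differences ran from -0.14 for Eed to 0.11 for Phf19, and limma's test put 0 of 10 genes under 0.05 by the adjusted or the unadjusted p, where 0% and 7.95% of all tested genes were under it. The intervals of that contrast reached from -0.38 to 0.40.

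The 10 genes fell into those that varied together and those that did not. Among the 45 pairs, the Pearson r over the 16 lines ranged from -0.50 to 0.93 with a median of 0.41, and 22 pairs were over 0.5. An r of that size was common among all tested genes. For Ezh1, Rnf2 with 0.51 ranked only 2626 among the 13184 other tested genes. For Suz12, Mtf2 ranked 3 and Rnf2 242. Suz12 and Mtf2 had the highest r, 0.93 (rho 0.73), which was 0.83 without AN9 and AN20 and 0.93 around the group means. Suz12 and Rnf2 followed with 0.82, which was 0.57 without those lines, and Ezh2 and Eed with 0.81. The PRC2 genes Ezh1, Ezh2, Eed, Suz12, Jarid2 and Mtf2 and the PRC1 ligase Rnf2 gave positive values in all their pairs. Ring1 was negative with each of the other 9 genes, down to -0.50 with Jarid2 (rho -0.14), and Phf19 gave values between -0.49 and 0.39. The values of Ring1 rested in part on single lines. For each pair, the 2 lines farthest from the median of the other gene, not of Ring1, were left out. The r of Ring1 was then -0.25 with Jarid2 (AN6 and GS4 left out), -0.03 with Mtf2 (AN20 and AN6) and 0.04 with Ezh2 (GS9 and GS4). AN6, the line with the highest Ring1 level, thus stayed in for Ezh2.

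**Figure D5:**
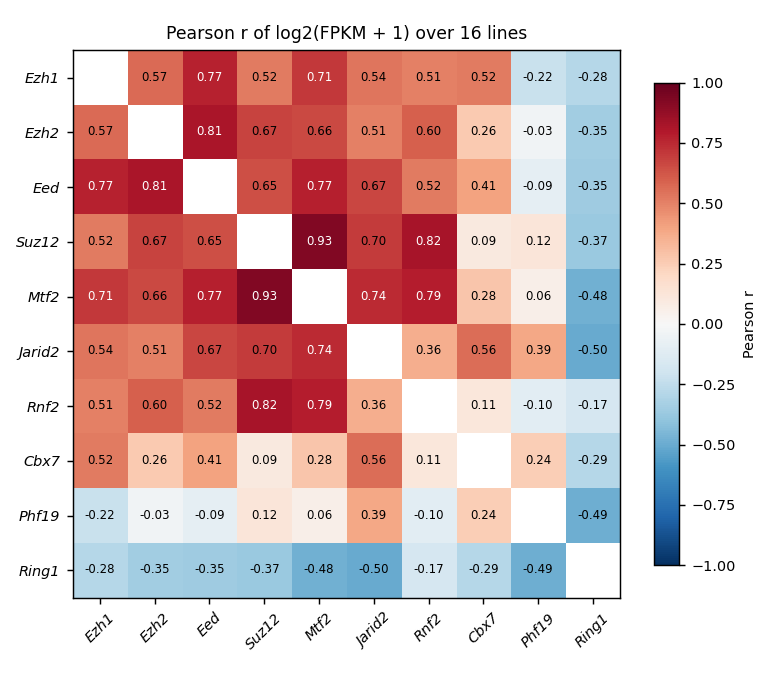
Pearson r of log2(FPKM + 1) over the 16 lines for the 45 pairs of genes, with genes on both axes and the value in each cell (blue negative, red positive). Suz12, Mtf2, Rnf2, Eed, Ezh1, Ezh2 and Jarid2 give positive values with each other, up to 0.93 for Suz12 and Mtf2, and the row of Ring1 is negative throughout, down to -0.50.

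The promoters of 4 genes that varied together are shown so that their letters can be compared, namely those of Suz12, Mtf2 and Rnf2, which had the highest mutual r, and that of Ezh2. They are the 250 bases before the start site in RefSeq annotation on build GRCm38.p6, 5′ to 3′ on the strand of the gene, and all 10 genes had such a window. Capitals mark matches, on either strand, to motifs of E2F, NF-Y, NRF1, the GC box and the TATA box.
Suz12, chr11:79992856-79993105, plus strand: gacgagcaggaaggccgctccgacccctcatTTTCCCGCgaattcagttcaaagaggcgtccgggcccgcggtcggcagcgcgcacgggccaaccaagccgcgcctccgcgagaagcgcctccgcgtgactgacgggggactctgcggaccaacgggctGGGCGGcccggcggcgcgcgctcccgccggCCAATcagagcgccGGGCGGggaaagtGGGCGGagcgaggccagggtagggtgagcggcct
Mtf2, chr5:108065424-108065673, plus strand: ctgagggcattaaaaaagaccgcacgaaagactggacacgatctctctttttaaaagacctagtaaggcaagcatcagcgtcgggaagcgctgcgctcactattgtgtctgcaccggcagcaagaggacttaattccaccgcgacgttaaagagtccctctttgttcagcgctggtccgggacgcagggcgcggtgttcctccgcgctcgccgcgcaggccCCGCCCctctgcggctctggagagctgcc
Rnf2, chr1:151500992-151501241, minus strand: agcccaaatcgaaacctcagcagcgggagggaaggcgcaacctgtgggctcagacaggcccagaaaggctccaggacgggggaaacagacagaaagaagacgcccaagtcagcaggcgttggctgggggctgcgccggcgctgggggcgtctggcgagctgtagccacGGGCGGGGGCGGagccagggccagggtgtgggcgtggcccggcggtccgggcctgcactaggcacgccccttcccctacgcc
Ezh2, chr6:47595031-47595280, minus strand: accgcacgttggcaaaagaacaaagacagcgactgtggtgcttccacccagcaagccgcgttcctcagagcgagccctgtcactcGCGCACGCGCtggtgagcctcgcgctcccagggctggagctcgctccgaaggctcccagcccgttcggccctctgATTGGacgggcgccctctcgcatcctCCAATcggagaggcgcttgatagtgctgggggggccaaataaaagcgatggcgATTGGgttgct

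The windows shown were rich in CpG but did not share a set of motifs. The number of CpG was 37 in Suz12, 23 in Mtf2 and Ezh2 and 20 in Rnf2, where the median over 32841 mouse promoter windows was 6. The GC box, spelled GGGCGG, had 3 matches in Suz12, 2 adjoining ones in Rnf2, 1 in Mtf2 and 0 in Ezh2. It occurred in 32.7% of all windows and in 7 of the 10 genes. Ezh2 held 3 matches to the NF-Y motif CCAAT and Suz12 held 1. That motif occurred in 33.9% of all windows and in 5 of the 10 genes. The NRF1 motif, a palindrome apart from its middle, matched once in Ezh2. It occurred in 3.74% of all windows and in 2 of the 10 genes, Ezh1 and Ezh2. The E2F motif was searched in the spellings TTTCCCGC, TTTGGCGC and TTTCGCGC. The first of these, present in 0.895% of all windows, was found in Suz12 and Phf19, and the others, present in 0.417% and 0.256%, were found in 0 of the 10 genes. Jarid2 and Mtf2 have a second annotated window each, with 22 CpG in that of Jarid2 and only 2 in that of Mtf2. The TATA box, spelled TATAAA and found in 12.4% of all windows, occurred among the 10 genes in a Jarid2 window alone. A match is a run of letters and was not tested as a binding site.

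The tested genes with the highest r to each member lay mostly outside the complexes. Since outside genes far outnumber members, this cannot show which group tracked a member more closely. Among the 13184 other tested genes, the closest member ranked 3 for Suz12, 34 for Mtf2, 172 for Ezh2 and 283 for Ezh1. It ranked 289 for Rnf2, 304 for Eed, 667 for Jarid2, 1014 for Cbx7, 1070 for Phf19 and 8772 for Ring1. The 3 tested genes with the highest Pearson r over the 16 lines included Snrpa1 (0.94) and Gfm1 (0.93) for Ezh2, and were Gtsf1l, Galm and C430002E04Rik for Eed (0.96, 0.95 and 0.94). For Suz12 they were Alg13 (0.94), Gabpa (0.93) and Mtf2 itself (0.93), the only member among the nearest 3 of another. For Mtf2 they were Gm13157, Hsp90aa1 and Gspt1 (0.96, 0.96 and 0.95), for Jarid2 Kif14, Nsun2 and Msh6 (0.96, 0.95 and 0.95), and for Ezh1 Nprl2, Grtp1 and Mbd4 (0.97, 0.94 and 0.93). In PRC1, Rnf2 was closest to Snx10, Smc6 and Snora81 (each 0.95), Cbx7 to Mrps18b, Hcn3 and Noc4l (0.90, 0.90 and 0.87), and Ring1 to Bcl7c, Kcns3 and Mrpl27 (0.84, 0.81 and 0.80). Phf19 had the lowest values, 0.80 for Slc38a1 and 0.79 for Fli1 and for Gata2.

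Some readings of single genes have a limit from the annotation. On build NCBIM37 (mm9), Ezh2 lies at chr6:47480273-47545340 and overlaps the lincRNA Gm17629 on the opposite strand. Suz12, at chr11:79806608-79847625, overlaps the lincRNA Gm16706. Mtf2, at chr5:108494693-108538023, overlaps the protein-coding gene Tmed5, Phf19, at chr2:34749277-34769546, the lincRNA Gm13448, and Jarid2, at chr13:44824843-45017012, a small nucleolar RNA. All lie on the opposite strand, and since no strand-aware counting is given in the sources used here, reads from such partners could not be told apart. Rnf2, at chr1:153316536-153347953, and Eed, at chr7:97103166-97129493, overlap no other annotated gene, nor do Ezh1, Cbx7 and Ring1.

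The remaining Polycomb genes gave few differences as well. Of 7 other PRC2 subunits tested, the histone chaperone Rbbp7 was the most abundant, at 232 ± 39.6 FPKM, and in the AN and the AI comparison limma's test called 0 of 7, with 0 of 7 under 0.05 also before adjustment. In the difference of effects, the chaperone Rbbp4 had -0.35 (SE 0.15, adjusted p = 0.290 in limma's test). Of 27 other PRC1 subunits, the polyhomeotic gene Phc1 was the most abundant, at 124 ± 19.3 FPKM, and limma's test called 0 of 27 in any comparison. At an unadjusted p under 0.05, 3 of 27 had higher means in AI F than in AI P, among them Auts2 and Phc2, where 7.77% of all tested genes passed. In the difference of effects, Phc2, Auts2 and Cbx8 had positive values (0.72, 0.44 and 0.39) and Rybp, a subunit of variant PRC1, a negative one (-0.45), each at an unadjusted p under 0.05. Of the 27, 4 were positive and 1 negative at that threshold, near the share of all tested genes, 16.6%. Over all lines, E2f6 had an F minus P value of 0.26 at that threshold, which 2 of 27 passed, where 7.95% of all tested genes did. Of 7 genes of the PR-DUB complex and the demethylases that remove Polycomb marks, the deubiquitinase Bap1 was the most abundant, at 40.0 ± 2.59 FPKM. Asxl2, a PR-DUB subunit, had 9.01 ± 1.35 FPKM in AN F and 7.14 ± 1.10 FPKM in AN P (difference 0.30, SE 0.13, adjusted p = 0.636 in limma's test), and its value in the difference of effects was -0.40.

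Most genes listed here as developmental targets of Polycomb in embryonic stem cells were at low levels, beside high levels of the PRC2 core. Of 40 such genes, 4 of which (Gata4, Gata6, Sox17 and Foxa2) are also extraembryonic endoderm markers, 11 had a mean under 0.5 FPKM and were not tested, 19 had a mean under 1 FPKM and 35 a mean under 10 FPKM. Such levels were also common outside the list, since only 13185 of all 22552 genes reached a mean of 0.5 FPKM. The mesoderm gene T was the highest, at 69.0 ± 68.3 FPKM, from 5.85 to 257 FPKM over the lines. The list also holds the cell-cycle inhibitors Cdkn2a and Cdkn2b, which had 14.9 ± 3.45 and 11.3 ± 4.08 FPKM. Of the 29 tested, limma's test called 0 in any comparison. Their median difference was -0.17 in AN F against AN P, with 3 of 29 positive (46.2% of all tested genes) and 0 at an unadjusted p under 0.05 (6.01%). In AI F against AI P it was 0.34, with 27 of 29 positive (43.7%) and 3 at an unadjusted p under 0.05, a share near the 7.77% of all tested genes. Those 3 were Gata2 (difference 0.35), Hoxa9 (0.44) and Cdkn2b (0.86), which had 13.7 ± 3.17 FPKM in AI F and 7.66 ± 4.40 FPKM in AI P. In the difference of effects, 9 of 29 had an unadjusted p under 0.05 (16.6% of all tested genes), all with positive values, led by Cdkn2b (1.33), Hoxa9 (0.61), Gata2 (0.46), Cdkn2a (0.75) and Hoxd9 (0.93). In AN, in AI and in the difference of effects, these signs were opposite to those of most of the 10 Polycomb genes. In the other comparisons, 22 of 29 were positive (F against P over all lines) and 13 of 29 (AN against AI). There the 10 Polycomb genes split into 5 positive and 5 negative. The 20 fibroblast markers had medians of -0.25 in AN (2 of 20 positive) and 1.04 in AI (20 of 20 positive), the same signs as the developmental genes. The part of fibroblast RNA in the levels of the developmental genes was not tested.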

How the data were processed

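Libraries from total RNA, 1 for each of 16 mouse cell lines, were read from a single end over 51 bases. The authors mapped these reads to mm9 (TopHat 2.1.0) and deposited FPKM values from Cufflinks 2.2.1 for each gene name in each line. The submitters' processing notes also name HTSeq without a role, and the library normalization is not given in the sources used here. Lines were placed by sample title, AN or AI by their labels and F or P by the tetraploid complementation result the paper gives for each title. The source entries of GS9 and GS32 name GS4, so the AI results rest on the titles.

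Genes averaging at least 0.5 FPKM, 13185 in all, were tested on the log2(FPKM + 1) scale with limma 3.58.1 in R 4.3.3 (moderated test with a mean-variance trend, two-sided, Benjamini-Hochberg adjustment over all tested genes, threshold 0.05). AN F against AN P and AI F against AI P were fitted on their own lines, and the other 3 comparisons on all 16 lines with group means. A fold change is on the log2(FPKM + 1) scale and understates low genes such as Phf19. The fit was first tested on simulated data. Exact permutation tests (scipy 1.17.1) were two-sided and not adjusted. Cuffdiff, which the authors used, needs reads and was not run. Read numbers were estimated from the lowest FPKM values of transcripts of at least 1500 bases, taken as 1 read, and the counting errors from them cover counting only.

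Named genes are the 10 members and, for each member, the 3 genes with the highest r. For each other Polycomb list and the developmental genes, the most abundant gene was named. To these were added up to 5 genes per list and comparison with the smallest unadjusted p under 0.05. The cell type markers named are examples from their lists and were not chosen by this rule. Members, lists and tests were chosen with earlier results of these data known. Of the gene names, 21575 of 22552 were found in the mm9 annotation. Promoter sequences came from RefSeq (GRCm38.p6). Values of some genes outside the 10 are not reported here.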

Additional observations from a re-analysis of the deposited data

Results flagged for a closer look

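Of 30 tests of a group of 4 or 5 lines for a line far from the others, 1 passed Dixon's 95% limit, where chance would give about 1.5. Ring1 had 4.74 FPKM in AN6, while the other 4 AN P lines had 3.55 to 3.80 FPKM, and the gap to the nearest line was 0.765 of the range of the group. The value rested on an estimated 280 reads. In the same line 7 of the 10 Polycomb genes were among the 3 lowest values of the series. No explanation was tested.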

How the results depend on the processing

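No paired analysis was possible because the replicate numbers only name lines within a group. Under every alternative run, 0 of the 10 genes passed an adjusted p under 0.05, and with the other choices kept 0 passed 0.1. At an unadjusted p under 0.05 there were 2 in AI, 4 in the difference of effects and 0 in the other 3 comparisons, and the genes over the whole table then numbered 792 (AN), 1025 (AI), 464 (AN against AI), 1048 (F against P) and 2194 (difference). With the GS lines left out, 9, 6 and 7 genes of the table passed the adjusted test in AN against AI, F against P and the difference, and with AN9 and AN20 left out 3 in AN and 1 in each of AN against AI, F against P and the difference. Leaving out each line in turn gave 0 to 1 genes in AN, 0 to 5 in AI, 0 to 1 in AN against AI, 0 to 39 in F against P and 0 to 651 in the difference, the last 2 maxima without AI9, where the smallest adjusted p of the 10 genes was 0.0659 (Ezh2). The number of the 10 genes at an unadjusted p under 0.05 ranged over the alternatives from 0 to 3 in AN, 0 to 3 in AI, 0 to 1 in AN against AI and 0 to 6 in the difference. In AN it was 3 (Mtf2, Suz12 and Rnf2) without AN1 or AN15 and 2 with all 16 lines in the fit. In AI it was 3 without AI7 or AI9 and 0 without AI3 or GS4 and with the fibroblast term. In the difference it was 6 without AI7, AI9 or AN1, 2 without AI3 or GS9, 1 without AI10, GS4, AN9, AN20 or AN3, and 0 without the GS lines, without AN9 and AN20 and with the fibroblast term. With quantile normalization it was 1 in AN, 1 in AI and 2 in the difference. The share of all tested genes at an unadjusted p under 0.05 is not given for each of these runs. The counts of the 10 genes under the alternatives therefore cannot be read as a result about these genes.

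Of the fold changes of the 10 genes, the AN values changed sign without AN9 and AN20 for Ezh1 (-0.0097), Ezh2 (-0.0020), Eed (-0.081) and Cbx7 (0.0014). With the fibroblast marker mean as a term, the AI values changed sign for Ezh2 (0.038), Suz12 (0.075), Jarid2 (0.071), Cbx7 (0.0081) and Rnf2 (0.011), and the difference for Cbx7 (0.021), which was 0.139 without the GS lines. Over AN and AI together, only Eed and Phf19 were followed across the alternatives, so sign changes of the other genes are not known. Eed changed sign without the GS lines (0.0090) and was -0.039 with quantile normalization. In AN against AI, only Ezh2, Cbx7 and Rnf2 were followed. Leaving out each line in turn, the AN value of Phf19 ranged from -0.187 to 0.024 (without AN15) and that of Cbx7 from -0.128 to 0.0030 (without AN5), and the AI value of Jarid2 from -0.313 to 0.086 (without GS4) and that of Ring1 from -0.028 (without GS9) to 0.125. The cause was not tested. The number of lines and, for Phf19 and Ring1, the read number limit what could be detected.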
